A study of Mus musculus with 4 samples.

Results

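The genes described here are the clustered replication-dependent histone genes, taken as every gene whose symbol begins with Hist1h, Hist2h, Hist3h or Hist4 and that held at least 10 raw UMIs over the 4 libraries. A UMI (unique molecular identifier) stands for 1 captured mRNA molecule. Of the 32285 genes listed, 67 carried such a symbol and 61 met the minimum. Hist1h2ao, with 10 UMIs, lay just inside it, and Hist2h2aa2, Hist1h3h and Hist1h2ah, with 7, 4 and 3, lay just outside. Hist1h2bq, Hist1h2ba and Hist1h2aa were at 0. The 61 members comprised 6 genes for the linker histone H1, 15 for H2A, 16 for H2B, 11 for H3 and 13 for H4.

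The series holds single-cell RNA-seq of brain cells sorted as CD45+ and CD11b+ from 4 mice, with 1 library per mouse. Both groups received 0.2% cuprizone (CPZ), a copper chelator that kills oligodendrocytes, in the diet for 5 wk, and the labels place the diet at an age of 5 to 6 wk. PRMT1FL mice (2 libraries, labelled wild type) carried loxP-flanked Prmt1 alleles on a C57BL/6 background. PRMT1Cx3cr1-KO mice (2 libraries, labelled PRMT1-KO) carried in addition the Cx3cr1-CreERT driver. The study's methods instead place tamoxifen, the drug that turns CreERT on, at an age of 5 to 6 wk in both genotypes, with the diet after it. The driver acts wherever Cx3cr1 is expressed, so that other myeloid cells of the brain may recombine too. No library from mice on normal chow was analysed here.

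Prmt1, the gene of the arginine methyltransferase targeted, was at 90.8 and 83.9 CPM (UMIs of a gene per 1000000 UMIs of the same cells) in microglial cells of PRMT1FL mice and at 70.4 and 70.6 in the PRMT1Cx3cr1-KO mice. Its log2 fold change was -0.38 ± 0.07 (SE), and it did not pass the test over all genes (adjusted p = 0.0783 by the quasi-likelihood test of edgeR). Without PRMT1Cx3cr1-KO mouse 1 or mouse 2 the adjusted p from edgeR was 0.00108 and 0.00965, and without PRMT1FL mouse 1 or mouse 2 it was 0.5005 and 0.431. UMIs counted per gene do not separate intact from recombined transcripts.

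Histones package DNA, and a cell that copies its genome must make a new set of them. The mRNAs of the clustered genes are made mainly in S phase, and most end in a conserved stem-loop, bound by SLBP, in place of a poly(A) tail. A library primed on poly(A) tails, as here, captures mainly those of their transcripts that carry a tail or an internal run of A. Microglia, the resident macrophages of the brain, rarely divide in the healthy adult and multiply where myelin is damaged.

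Cells with 200 to 6000 genes and with at most 10% mitochondrial UMIs numbered 8170 to 11427 per library. Of these, 7840 to 11016 per library were taken as microglial by a rule on marker genes, with a median of 6182 to 7040 UMIs per cell. P2ry12, a microglial receptor, had a UMI in 73.0% to 82.3% of the microglial cells. Cells with 3 or more neutrophil markers numbered 26 and 48 in the PRMT1FL mice and 0 and 2 in the PRMT1Cx3cr1-KO mice, and those with 3 or more astrocyte markers 129 and 96 against 31 and 17. Both kinds were left out of the microglial sums. Pairs of libraries shared 31 to 46 cell barcodes.

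The stem-loops of 4 members show the element that ends these mRNAs. Each is given 5′ to 3′ on the transcript strand with 4 bases before it and up to 10 after, and with the stem and loop in capitals. They were read from GENCODE M21 transcripts (GRCm38, also called mm10, the build of the libraries). Hist1h2ap and Hist1h2ae are shown as members much higher in cells with UMIs of the cell-cycle genes Pcna and Mki67 or Top2a. Hist1h1c is shown as a member that was not higher in such cells, and Hist1h4h for another form of the stem.
Hist1h2ap: aaaaGGCTCTTTTCAGAGCCatc
Hist1h2ae: caaaGGCTCTTTTCAGAGCCattcacttaa
Hist1h1c: aaaaGGCTCTTTTCAGAGCCaccactccca
Hist1h4h: caaaGGCCCTTTTCAGGGCCgcccacattt
They lie after the stop codon, at chr13:21833026-21833048 on the minus strand (Hist1h2ap), chr13:23570658-23570687 on the minus strand (Hist1h2ae), chr13:23739508-23739537 on the plus strand (Hist1h1c) and chr13:23531454-23531483 on the plus strand (Hist1h4h). A stem of 6 pairs around a loop of 4 bases of this kind was found after the stop codon of 34 of the 61 members. Of the other 27, 13 had fewer than 50 annotated bases there. In the longest coding transcript of each gene 24 members held the stem GGCTCT of Hist1h2ap, 7 the stem GGCCCT of Hist1h4h and 2 the stem GGTCCT.

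What follows the stem-loop differed among members. The annotated transcript of Hist1h2ap ended 3 bases after it, that of Hist1h4h 46 bases and that of Hist1h2ae 151 bases after it. The transcripts of the linker histone genes Hist1h1c and Hist1h1d ran on for 840 and 4884 bases and that of Hist1h2ac (H2A) for 2010. Hist1h2bc (H2B), with 742 bases after its stop codon, held no such stem-loop.

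Most members lie in 1 cluster. On chromosome 13, 49 members lie between positions 21715763 and 23764406 and gave 88.0% of the members' UMIs. On chromosome 3, 9 members gave 8.28%, on chromosome 11 the 2 Hist3 genes gave 3.06%, and on chromosome 6 Hist4h4 gave 0.650%. The copies resemble each other closely. Of the windows of 100 bases in a member's transcript, a median of 34.2% also occurred in a transcript of another gene, and 21 members were over 50%. This share was 92.2% for Hist1h2ap, 88.3% for Hist2h2aa1 and 100% for Hist2h3c1, but 30.7% for Hist1h2ae and 5.07% for Hist1h1c. For members with a high share, the UMIs counted per copy are uncertain, and how reads that fit several genes were counted was not examined.

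The promoters of 3 members are shown because the results below part these genes by cell class. Hist1h2ae and Hist1h1b (linker histone H1.5) were much higher in cells with UMIs of Pcna and of Mki67 or Top2a than in cells with none. Hist1h1c (linker histone H1.2) was not. The sequences run from 250 bases before to 50 bases after the RefSeq start (GRCm38.p6), 5′ to 3′ on the gene's strand. Capitals mark ATTTGCAT (the octamer bound by OCT1), CCAAT (bound by NF-Y) and TATAAA (a form of the TATA box), searched on both strands.
Hist1h2ae: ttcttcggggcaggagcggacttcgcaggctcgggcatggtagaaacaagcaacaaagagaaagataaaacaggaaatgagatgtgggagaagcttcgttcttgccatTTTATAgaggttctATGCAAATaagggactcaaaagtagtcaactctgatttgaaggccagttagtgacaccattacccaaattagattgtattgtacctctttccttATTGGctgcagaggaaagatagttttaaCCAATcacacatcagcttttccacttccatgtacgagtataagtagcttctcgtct
Hist1h1b: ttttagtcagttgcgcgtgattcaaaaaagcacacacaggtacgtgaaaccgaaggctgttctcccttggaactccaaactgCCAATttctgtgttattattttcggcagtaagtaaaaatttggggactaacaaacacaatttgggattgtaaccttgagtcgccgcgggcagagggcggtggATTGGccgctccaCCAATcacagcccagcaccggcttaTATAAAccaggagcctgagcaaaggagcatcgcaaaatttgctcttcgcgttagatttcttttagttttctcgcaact
Hist1h1c: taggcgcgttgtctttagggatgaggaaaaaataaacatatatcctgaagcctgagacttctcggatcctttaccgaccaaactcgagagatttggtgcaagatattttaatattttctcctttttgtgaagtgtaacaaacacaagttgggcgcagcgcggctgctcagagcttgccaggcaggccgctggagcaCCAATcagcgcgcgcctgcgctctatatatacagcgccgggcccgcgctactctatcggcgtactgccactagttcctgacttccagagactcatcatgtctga
The windows are chr13:23571171-23571470 (minus strand), chr13:21780576-21780875 (minus strand) and chr13:23738557-23738856 (plus strand). RefSeq promoters were matched for 55 of the 61 members. Those without one were Hist1h2ap, Hist1h2bc, Hist2h4, Hist1h3a, Hist2h2be and Hist1h3f. CCAAT occurred in 46 of the 55 (83.6%) against 37.4% of all 32544 promoters of the same length. The octamer occurred in 10 (18.2% against 1.75%) and TATAAA in 31 (56.4% against 13.6%). By family, CCAAT was in each matched H1, H2A, H2B and H3 promoter and in 3 of 12 H4 promoters. The octamer was in 5 of 14 H2A and 5 of 14 H2B promoters and in no H1, H3 or H4 promoter. In the 5 H2A promoters it lay on the opposite strand, as ATGCAAAT, at -119 to -200 from the start. In those of Hist1h2bg, Hist1h2bb, Hist1h2bm and Hist2h2bb it lay on the gene's strand at -25 to -90. Whether a match serves the gene named or a neighbour was not tested. The windows of Hist1h2ae and Hist1h2bg, which are transcribed away from each other, overlap and share their octamer and their TATAAA. Both of these read on the strand of Hist1h2bg. These are matches of letters, and binding was not measured.

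In the microglial cells the members together gave 211057 UMIs. Per library they made up 577 and 698 CPM in the PRMT1FL mice and 575 and 671 in the PRMT1Cx3cr1-KO mice, and the ranges of the genotypes overlapped. The UMIs were concentrated in few genes. Hist1h2ap (H2A) held 22.4% of them, and the first 3, Hist1h2ap, Hist1h1c and Hist1h2bc, held 57.1%. The first 20 members held 95.2%, and 15 members had fewer than 100 UMIs. CPM are not scaled to transcript length, to the part of the transcripts that carries a tail or to the sequence shared with other genes. The order is thus one of UMIs counted.

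**Figure D1:**
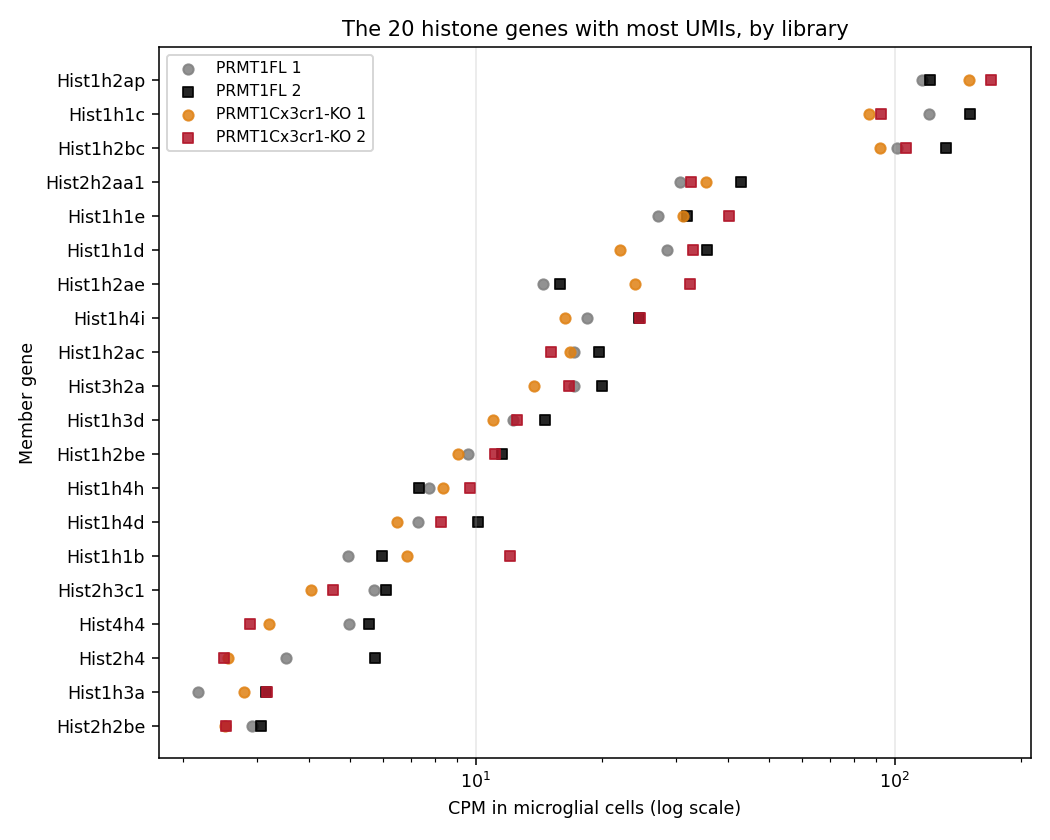
CPM in microglial cells (log scale) for the 20 members with most UMIs, 1 point per library. Hist1h2ap was at 116 and 121 in the PRMT1FL mice and at 151 and 170.3 in the PRMT1Cx3cr1-KO mice, and Hist1h1c at 121 and 151 against 86.7 and 92.5.

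By family, the H2A genes summed to 199 and 224 CPM in the PRMT1FL mice and to 245 and 274 in the PRMT1Cx3cr1-KO mice. The H1 genes were at 183 and 227 against 149 and 180.1 and the H2B genes at 123 and 159 against 114 and 133. The H4 genes were at 44.7 and 56.5 against 40.3 and 51.9 and the H3 genes at 27.1 and 31.6 against 26.6 and 32.03. The genotypes did not overlap for H2A and H1 and overlapped for the other families. These 2 sums lean on single genes, since Hist1h2ap (H2A) held 22.4% and Hist1h1c (H1) 17.7% of all the members' UMIs. Not all genes of a family went with its sum. Hist1h2ac and Hist3h2a (H2A) lay lower in the knockout and Hist1h1b (H1) higher, as given below. Sums without the leading gene were not compared. With 2 mice against 2, a share of 0.333 of the orderings of the mice leaves no overlap.

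UMIs of the members were spread over many cells. At least 1 UMI of any member was seen in 73.9% to 82.7% of the microglial cells of a library. Hist1h2bc was seen in 35.2% to 46.3%, Hist1h1c in 29.9% to 41.6% and Hist1h2ap in 19.9% to 28.9% of them. Among the 76 neutrophil-marked cells, taken as a background cell type, 63 had a UMI of any member (82.9%, exact 95% interval 72.5% to 90.6%) and 20 had one of Hist1h2ap (26.3%, 16.9% to 37.7%). Their median depth was 3868 and 4930 UMIs in the PRMT1FL mice, from which all but 2 of these cells came, so that no such background was measured in the PRMT1Cx3cr1-KO mice. Shares of cells at this height do not set microglial cells apart from neutrophil-marked cells in the PRMT1FL mice, and the comparisons below rest on UMIs summed over cells. In the neutrophil-marked cells the members summed to 394 and 1055 CPM in the PRMT1FL mice, against 577 and 698 in the microglial cells. Whether those UMIs were the cells' own, carried over from other cells or from doublets was not tested. These intervals cover counting error only.

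To follow the members through the cell cycle, cells were parted by UMIs of 3 genes outside the family. Pcna encodes the sliding clamp of DNA replication, and Mki67 and Top2a, a proliferation antigen and a topoisomerase, peak in G2 and mitosis. Cells with a UMI of any of them, called cells with a cell-cycle UMI below, made up 32.8% and 35.2% in the PRMT1FL mice and 36.0% and 41.4% in the PRMT1Cx3cr1-KO mice. The means differed by 4.72 percentage points (SD 1.68 and 3.78, n = 2 mice each), with p = 0.333 in a 2-sided exact permutation test, the smallest that 2 against 2 allows. After each cell was thinned to 2000 UMIs the shares were 13.1% and 13.1% against 15.9% and 18.3%. Shallower cells, 7.36% to 10.3% per library, were left out. Cells with a cell-cycle UMI were deeper, with medians of 9581 to 11237 UMIs against 4999 to 5688 in the rest. Since depth moves with the class, values from thinned cells are given after those from all UMIs for the leading members and for named members newly called there. Classes were set anew from the UMIs kept in thinning, so a thinned class does not hold the same cells. A difference between the 2 sets of values can come from depth or from the change of cells, and these were not told apart.

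Cells with a cell-cycle UMI held more histone CPM than the others in each mouse. The members summed to 645 and 748 with and to 517 and 648 without one in the PRMT1FL mice. In the PRMT1Cx3cr1-KO mice they summed to 738 and 826 with and to 407 and 469 without one. The genotypes overlapped in the cells with one, while in the cells without one both PRMT1Cx3cr1-KO mice lay lower. Cells with a cell-cycle UMI held 52.2% and 53.6% of the members' UMIs in the PRMT1FL mice and 65.2% and 69.7% in the PRMT1Cx3cr1-KO mice, and 46.6% and 49.995% against 50.8% and 56.6% of the UMIs of all genes. In such sums, fewer cells with a transcript and less of it per cell cannot be told apart.

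Of 47 members tested, 28 were higher and 3 lower in cells with a cell-cycle UMI (edgeR, Benjamini-Hochberg adjusted p under 0.05, mouse as a term). Among all 12862 genes tested 26.2% were higher and 26.1% lower. The median log2 fold change of the members was 0.46, against -0.01 over all genes. The 14 members not tested had 10 to 64 UMIs. In thinned cells 23 of 34 members were higher and 0 lower, where 15.7% of all genes were higher. With mouse as a term, the p-values rest on the spread of the class difference among these 4 mice, not on their spread in level. Genotype was not a term, so a class difference that varies with genotype is part of that spread.

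Single H2A, H1 and H3 genes led the rise. Hist1h2ap went from 57.5 and 57.5 CPM without to 183 and 185 with a cell-cycle UMI in the PRMT1FL mice. In the PRMT1Cx3cr1-KO mice it went from 33.9 and 37.5 to 264 and 272. Its log2 fold change was 2.28 ± 0.16 (SE, adjusted p = 2.44e-08 from edgeR). Hist1h2ae, also H2A, rose by 2.12 ± 0.10 and Hist1h1b by 2.78 ± 0.12. Among members with fewer UMIs, Hist1h3b and Hist1h3c (H3) rose by 4.13 ± 0.33 and 3.53 ± 0.17, Hist1h2ab (H2A) by 3.22 ± 0.26, Hist1h2bb (H2B) by 1.62 ± 0.20 and Hist1h1a (linker histone H1.1) by 1.49 ± 0.18. Hist1h3b had 49 and 48 UMIs in the PRMT1FL mice and 65 and 128 in the PRMT1Cx3cr1-KO mice, so its values rest on few molecules. In thinned cells Hist1h2ap was at 2.78 ± 0.06, Hist1h2ae at 2.82 ± 0.09, Hist1h1b at 3.34 ± 0.16 and Hist1h1a at 2.50 ± 0.29, each a larger difference than in all UMIs.

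Other members with many UMIs did not pass the test. Hist1h1c was at -0.09 ± 0.05 (adjusted p = 0.145 from edgeR), Hist1h2bc at 0.01 ± 0.04, Hist1h1d (H1.3) at 0.06 ± 0.05 and Hist1h1e (H1.4) at -0.06 ± 0.04. Hist1h2ac was at -0.02 ± 0.10, Hist1h2be (H2B) at 0.02 ± 0.06, Hist2h3c1 (H3) at 0.02 ± 0.08, Hist2h2be (H2B) at 0.06 ± 0.10, Hist1h4d (H4) at 0.15 ± 0.07 and Hist2h4 (H4) at -0.25 ± 0.11. In thinned cells 6 of these 10 were called higher (edgeR). They were Hist1h2ac (0.67 ± 0.12), Hist1h4d (0.58 ± 0.15), Hist1h2be (0.46 ± 0.13), Hist1h1d (0.23 ± 0.08), Hist1h1e (0.22 ± 0.08) and Hist1h2bc (0.13 ± 0.05), while Hist1h1c was at -0.08 ± 0.05. The 3 members called lower were Hist4h4 (H4, -0.53 ± 0.09), Hist2h2aa1 (H2A, -0.10 ± 0.03) and Hist3h2a (H2A, -0.10 ± 0.04). Hist2h2aa1 turned to 0.09 in thinned cells, and Hist3h2a to 0.14 when Mki67 or Top2a without Pcna set the class. Hist1h3d (H3, 0.23 ± 0.05), Hist1h4h (H4, 0.29 ± 0.06), Hist1h4i (H4, 0.35 ± 0.06) and Hist1h3a (H3, 0.41 ± 0.11) rose by less than the leading members. By family, 9 of 10 tested H3 genes rose, 6 of 10 H2A, 7 of 14 H2B, 4 of 8 H4 and 2 of 5 H1 genes.

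The cells with a cell-cycle UMI were next parted into 3 classes. Cells with Pcna only made up 24.1% and 26.4% in the PRMT1FL mice and 23.0% and 23.1% in the PRMT1Cx3cr1-KO mice. Cells with Mki67 or Top2a but no Pcna made up 3.92% and 3.60% against 5.81% and 7.86%, and cells with both 4.78% and 5.19% against 7.20% and 10.4%. The members' sum was highest in cells with both, at 1332 and 1452 CPM in the PRMT1FL mice and 1537 and 1426 in the PRMT1Cx3cr1-KO mice. It was 1066 and 1016 against 887 and 1017 with Mki67 or Top2a only, and 403 and 523 against 339 and 399 with Pcna only, below the cells with none of the 3 in each mouse.

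In cells with both, 39 of 49 tested members were higher than in cells with none and 0 lower, where 29.1% of all genes were higher (edgeR). The members' median log2 fold change was 1.36, against -0.02 over all genes. Hist1h2ap was at 661 and 675 CPM in these cells of PRMT1FL mice and at 792 and 661 in those of PRMT1Cx3cr1-KO mice, and its log2 fold change was 3.90 ± 0.11. Hist1h3b rose by 5.68 ± 0.29, Hist1h3c by 5.07 ± 0.22, Hist1h2ab by 4.68 ± 0.30, Hist1h1b by 4.38 ± 0.11 and Hist1h2ae by 3.63 ± 0.08. Hist1h2bb and Hist1h1a rose by 3.14 ± 0.20 and 2.99 ± 0.19. Hist1h1c was at -0.03 ± 0.07, Hist1h2bc at 0.05 ± 0.05 and Hist2h2aa1 at 0.00 ± 0.06, and none of these passed the test. In thinned cells Hist1h1c was called lower, at -0.43 ± 0.16, and Hist2h2aa1 higher, at 0.67 ± 0.23. There Hist1h2ap was at 4.38 ± 0.09, Hist1h2ae at 4.48 ± 0.16, Hist1h1b at 5.10 ± 0.26 and Hist1h1a at 4.49 ± 0.52. Doublets were not called. Without the 5% of cells with most UMIs, 37 of 49 members were higher in cells with both, where 28.2% of all genes were. All 11 H3 genes tested rose, with 8 of 11 H2A, 11 of 14 H2B, 5 of 8 H4 and 4 of 5 H1 genes.

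**Figure D2:**
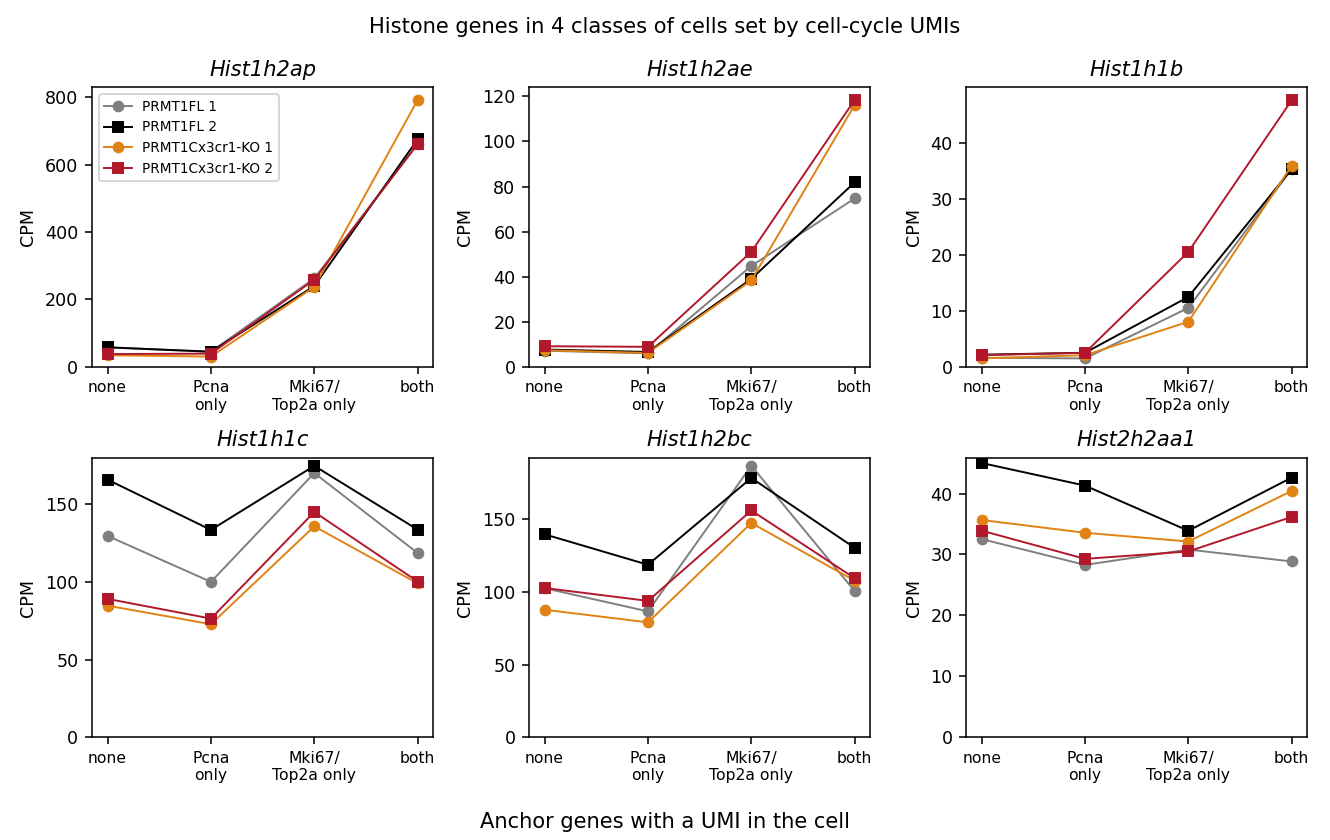
CPM of 6 members in cells with no UMI of Pcna, Mki67 or Top2a (none), with Pcna only, with Mki67 or Top2a only, and with both, with 1 line per library. Hist1h2ap, Hist1h2ae and Hist1h1b were highest in cells with both, while Hist1h1c and Hist1h2bc were highest with Mki67 or Top2a only.

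In cells with Mki67 or Top2a only, 40 of 49 members were higher and 1 lower than in cells with none, where 22% of all genes were higher (edgeR). The median was 1.10, against -0.02 over all genes. Members that had not passed the test in cells with both now did, with Hist1h1c at 0.47 ± 0.07, Hist1h2bc at 0.63 ± 0.06 and Hist3h2ba (H2B) at 1.01 ± 0.19. Hist1h2ap and Hist1h2ae rose by 2.44 ± 0.12 and 2.44 ± 0.11, Hist1h1b by 2.86 ± 0.16 and Hist1h1d by 0.92 ± 0.08. Hist1h2br and Hist1h2bh (H2B) rose by 2.35 ± 0.24 and 2.38 ± 0.32. In thinned cells Hist1h2ap was at 3.75 ± 0.07, Hist1h2ae at 3.62 ± 0.12 and Hist1h1b at 4.16 ± 0.21, and Hist1h3a, at 0.04 ± 0.23 in all UMIs, was called higher at 1.68 ± 0.39. The member called lower was Hist2h2aa1, at -0.20 ± 0.07, which turned to 0.31 in thinned cells.

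With Pcna only, 12 of 49 members were lower and 1 higher than in cells with none, where 16.2% of all genes were lower and 19.5% higher (edgeR). The members' median was -0.20, against -0.00 over all genes. Those lower included the linker histones Hist1h1d (-0.53 ± 0.07), Hist1h1e (-0.43 ± 0.06) and Hist1h1c (-0.25 ± 0.06), and Hist1h2ac (-0.64 ± 0.13), Hist1h4d (-0.59 ± 0.09), Hist4h4 (-0.68 ± 0.13) and Hist3h2ba (-0.43 ± 0.15). Hist1h3b was the member called higher, at 1.36 ± 0.49, and no member was without PRMT1FL mouse 1, without PRMT1Cx3cr1-KO mouse 1 or without the 5% of cells with most UMIs. Cells with Pcna only had medians of 8794 to 10898 UMIs, and values differed in thinned cells. With classes set anew, cells with both made up 0.916% and 1.12% of thinned cells in the PRMT1FL mice. In the PRMT1Cx3cr1-KO mice they made up 1.41% and 1.98%. Cells with both in all UMIs may thus count as Pcna only or as none after thinning, and the part of this in the values was not tested. There 3 of 25 members were higher and 2 lower, where 6.07% of all genes were higher and 2.59% lower. Hist1h2ap, Hist1h2ae and Hist1h1b were higher there, at 0.82 ± 0.09, 1.06 ± 0.16 and 1.35 ± 0.29, against -0.20 ± 0.12, -0.15 ± 0.11 and 0.24 ± 0.16 without thinning (adjusted p = 0.199, 0.279 and 0.267 from edgeR). Of the 12 members called lower, Hist1h1d and Hist1h1c were called lower in thinned cells too, at -0.54 ± 0.13 and -0.22 ± 0.07.

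Set directly against each other, cells with Pcna only were lower than cells with Mki67 or Top2a only in 39 of 49 members and higher in 0, where 13.9% of all genes were lower (edgeR). The median was -1.44, against 0.02 over all genes. The differences were -2.64 ± 0.12 for Hist1h2ap, -2.61 ± 0.17 for Hist1h1b, -3.39 ± 0.32 for Hist1h3c, -1.45 ± 0.08 for Hist1h1d and -0.72 ± 0.07 for Hist1h1c. Hist2h2aa1 did not pass the test (0.08 ± 0.07, adjusted p = 0.457 from edgeR). In thinned cells 19 of 25 members were lower, where 9.19% of all genes were. Among them was Hist1h3a at -1.43 ± 0.48, which was at -0.08 ± 0.24 in all UMIs.

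**Figure D3:**
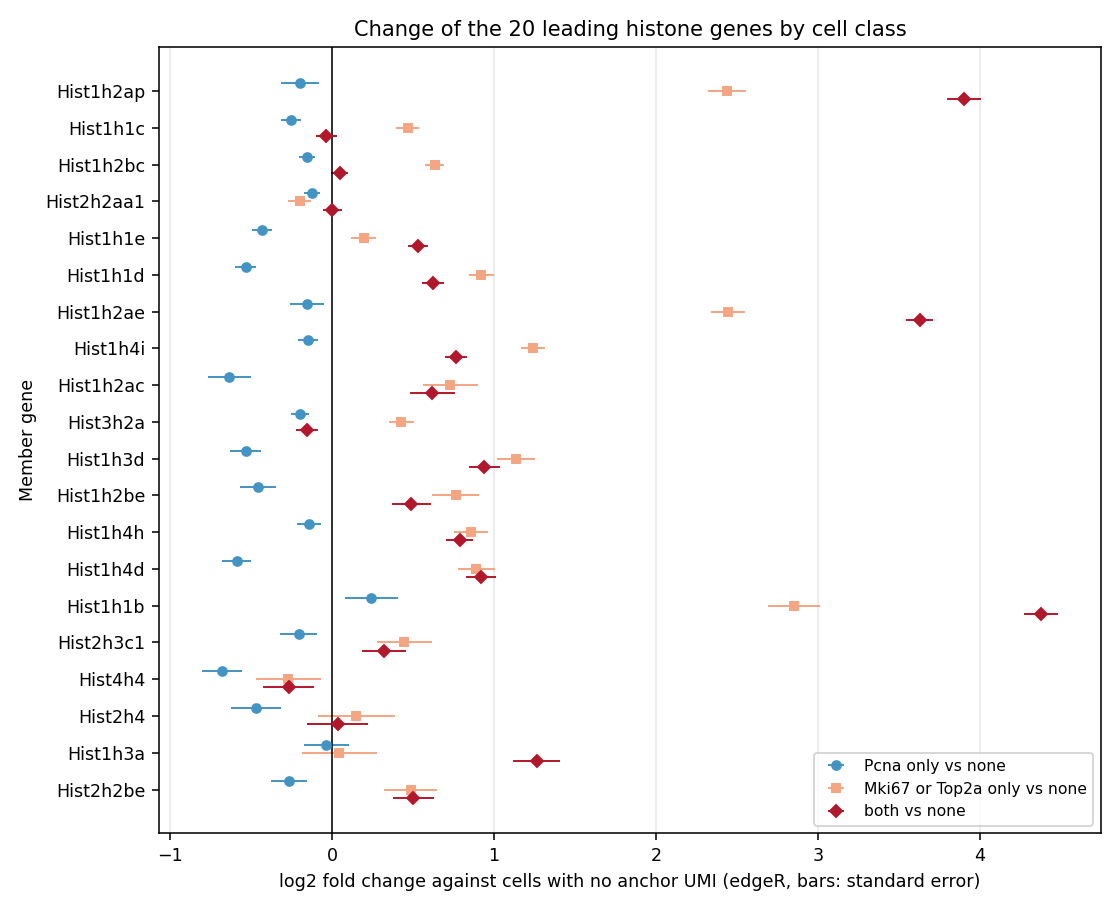
Log2 fold change (edgeR, 4 mice) of the 20 members with most UMIs in 3 classes of cells. Each class is set against cells with none of the 3 cell-cycle UMIs, and bars are standard errors derived from edgeR's F statistic. In cells with both, Hist1h2ap, Hist1h2ae and Hist1h1b stood at 3.90, 3.63 and 4.38, and Hist1h1c, Hist1h2bc and Hist2h2aa1 lay near 0.

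Members with a short annotated stretch after the stop codon tended to differ more between the classes. Over the 49 tested members, Spearman's rho between that length and the log2 fold change of cells with both against none was -0.61, a description across genes that share the same libraries. The 25 members with 154 or fewer bases had a median fold change, on the log2 scale, of 2.91 and a median of 75.2% of their UMIs in cells with a cell-cycle UMI. The 24 members with longer stretches had medians of 0.57 and 52.7%. The median UMIs per gene were 285 and 1536. The lowest of the first was Hist2h2aa1, with 109 bases and a change of 0.00 (0.67 in thinned cells), and the highest of the second Hist1h2ae, with 199 bases and 3.63. Among the longest stretches, Hist1h2br and Hist1h2bh, with 1803 and 1258 bases, were at 2.26 and 2.41. The length is that of the annotation, which gives Hist1h1b 0 bases after its stop codon.

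**Figure D4:**
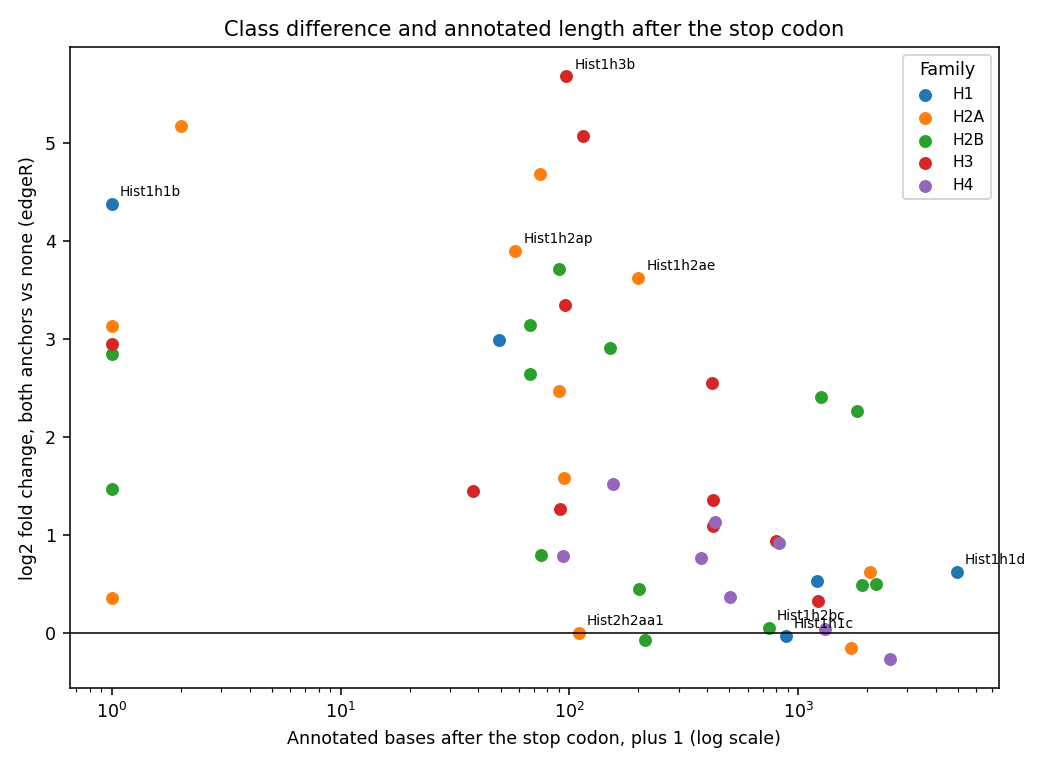
Log2 fold change (edgeR) of cells with both kinds of cell-cycle UMI against cells with none, against the annotated bases after the stop codon plus 1 (log scale), for the 49 tested members coloured by family. Values fell toward longer stretches (rho -0.61), with a wide spread.

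The comparison of the genotypes addressed whether deletion of Prmt1 under the Cx3cr1 driver changed microglia during CPZ demyelination. In sums over all microglial cells, Hist1h2ap, Hist1h2ae and Hist1h1b lay higher in both PRMT1Cx3cr1-KO mice than in either PRMT1FL mouse, and Hist1h1c, Hist4h4, Hist2h4 and Hist2h3c1 lay lower. None of the 51 members tested passed the test in edgeR, where 0.555% of all 13878 genes were called. At an unadjusted p under 0.05 there were 14 of them, where 20.03% of all genes were, and DESeq2 called 7, where it called 5.14% of all genes. The members' median log2 fold change was 0.18, against -0.00 over all genes, with 32 above and 19 below 0. The 10 members not tested had 10 to 37 UMIs.

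Hist1h2ae was at 14.4 and 15.9 CPM in the PRMT1FL mice and at 24.0 and 32.5 in the PRMT1Cx3cr1-KO mice, which differed by a log2 fold change of 0.82 ± 0.13 (adjusted p = 0.0668 from edgeR). Hist1h2ap was at 116 and 121 against 151 and 170.3, or 0.36 ± 0.07 (adjusted p = 0.0860 from edgeR). Hist1h1b was at 4.95 and 5.97 against 6.83 and 12.1, or 0.72 ± 0.25. These 3 genes, among those that led the rise with the cell cycle, were each higher in both PRMT1Cx3cr1-KO mice. Hist1h1a and Hist1h2br, which also rose with a cell-cycle UMI, had small or negative genotype differences, given below. Hist1h1c was at 121 and 151 against 86.7 and 92.5, or -0.68 ± 0.11 (adjusted p = 0.0696 from edgeR). Hist4h4 was at 4.98 and 5.54 against 3.20 and 2.89, or -0.86 ± 0.13 (adjusted p = 0.0538 from edgeR). Hist2h4 was at 3.53 and 5.74 against 2.56 and 2.50, or -0.94 ± 0.23. The genotypes did not overlap for any of these 6 genes. A share of 0.333 of the orderings of 2 against 2 mice leaves no overlap. The share of all genes without overlap was not counted, here or for the members below, so lack of overlap is only a description. How many members were called turned on single mice, with 0 without PRMT1FL mouse 1, 0 without PRMT1FL mouse 2, 15 of 55 without PRMT1Cx3cr1-KO mouse 1 and 10 of 51 without the other knockout mouse. In the last 2 fits 19.5% and 7.14% of all genes were called. With 1 mouse left in a group, that mouse is assumed to vary like the others.

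Among the other leading members, Hist2h3c1 (-0.53 ± 0.10), Hist3h2a (-0.36 ± 0.11), Hist1h2ac (-0.28 ± 0.10) and Hist2h2be (-0.32 ± 0.13) had genotypes that did not overlap and lay lower in the knockout, and Hist1h4h (0.18 ± 0.09) lay higher. Hist1h2bc was at 101 and 133 against 92.2 and 106 CPM (-0.31 ± 0.13) and Hist2h2aa1 at 30.7 and 43.0 against 35.4 and 32.6 (-0.19 ± 0.16), with overlap. Hist1h1e (0.20 ± 0.12), Hist1h1d (-0.30 ± 0.18), Hist1h4i (-0.14 ± 0.20), Hist1h3d (-0.26 ± 0.11), Hist1h2be (-0.14 ± 0.13), Hist1h4d (-0.31 ± 0.18) and Hist1h3a (0.10 ± 0.20) overlapped too. Of members with fewer UMIs, Hist1h3c was at 1.41 ± 0.29 (adjusted p = 0.0879 from edgeR), Hist1h3b at 0.77 ± 0.30, Hist1h2ab at 0.71 ± 0.37, Hist1h2bb at 0.43 ± 0.26 and Hist1h2bh at 0.32 ± 0.22. Hist1h1a was at 0.07 ± 0.20, Hist1h2br at -0.13 ± 0.22 and Hist3h2ba at -0.25 ± 0.14. The 23 tested members that are not named individually ranged from -0.09 to 1.19.

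Among cells without a cell-cycle UMI, 4 of 40 tested members were lower in the knockout and 0 higher, where 0.403% of all genes were lower (edgeR). Hist1h2ap was at 57.5 and 57.5 CPM in the PRMT1FL mice and at 33.9 and 37.5 in the PRMT1Cx3cr1-KO mice (-0.76 ± 0.07 on the log2 scale, adjusted p = 0.0124 from edgeR). Hist1h1c was at 129.5 and 166 against 84.7 and 89.0 (-0.83 ± 0.12, adjusted p = 0.0341 from edgeR). Hist1h2ac was at 19.6 and 21.5 against 13.9 and 14.1 (-0.62 ± 0.08) and Hist4h4 at 5.75 and 6.998 against 3.53 and 3.47 (-0.93 ± 0.15). The genotypes did not overlap for any of the 4. The members' median was -0.24, against -0.00 over all genes. Hist1h2ae and Hist1h1b were at 0.09 ± 0.12 and -0.13 ± 0.24 and did not pass the test. Without PRMT1FL mouse 1 only Hist1h1c was called, and without PRMT1FL mouse 2 the number of members called was 0. The share of these cells with a UMI of Hist1h2ap was 22.7% and 24.5% in the PRMT1FL mice and 14.1% and 15.2% in the PRMT1Cx3cr1-KO mice. Those of the PRMT1FL mice lay below the 26.3% of neutrophil-marked cells, and no background was measured in the PRMT1Cx3cr1-KO mice. At 2000 UMIs per cell the shares were 10.7% and 10.4% against 6.75% and 8.03%.

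Among cells with a cell-cycle UMI, 2 of 49 tested members were higher in the knockout and 0 lower, where 0.387% of all genes were higher (edgeR). Hist1h2ap was at 183 and 185 CPM in the PRMT1FL mice and at 264 and 272 in the PRMT1Cx3cr1-KO mice (0.46 ± 0.07, adjusted p = 0.0381 from edgeR). Hist1h2ae was at 22.8 and 24.1 against 40.2 and 50.5 (0.87 ± 0.11, adjusted p = 0.0266 from edgeR). For both genes the genotypes did not overlap. The members' median was 0.24, against -0.00 over all genes. Neither call held without PRMT1FL mouse 1 or without PRMT1FL mouse 2, and without PRMT1Cx3cr1-KO mouse 1 or mouse 2 there were 12 and 6 of 50 members called, where 14.5% and 4.26% of all genes were.

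The cells with a cell-cycle UMI were made up differently in the genotypes, without overlap. Cells with Pcna only were 73.5% and 75.0% of them in the PRMT1FL mice and 63.9% and 55.8% in the PRMT1Cx3cr1-KO mice, and cells with both were 14.6% and 14.8% against 19.98% and 25.2%. Within each of the 3 classes 0 members were called between genotypes (edgeR). Of all genes 0.674% were called with Pcna only, 0.201% with Mki67 or Top2a only and 0.188% with both. At an unadjusted p under 0.05 there were 13 of 36 members with Pcna only, 5 of 31 with Mki67 or Top2a only and 5 of 43 with both. Of all genes 16.5%, 8.003% and 10.2% were under that p. The members' medians were -0.33, -0.21 and 0.08, the first 2 opposite in sign to that of the whole class. DESeq2 was not run within these classes. For Hist1h2ap the log2 fold change was -0.44 ± 0.11 with Pcna only, -0.09 ± 0.10 with Mki67 or Top2a only and 0.08 ± 0.10 with both, each below that of the whole. The part of this makeup in the values of the whole class was not tested. For Hist1h2ae it was 0.20 ± 0.17, 0.02 ± 0.15 and 0.54 ± 0.09 (adjusted p = 0.0613 with both, from edgeR). Hist1h1c was below 0 in all 3, at -0.72 ± 0.13, -0.37 ± 0.10 and -0.38 ± 0.09.

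**Figure D5:**
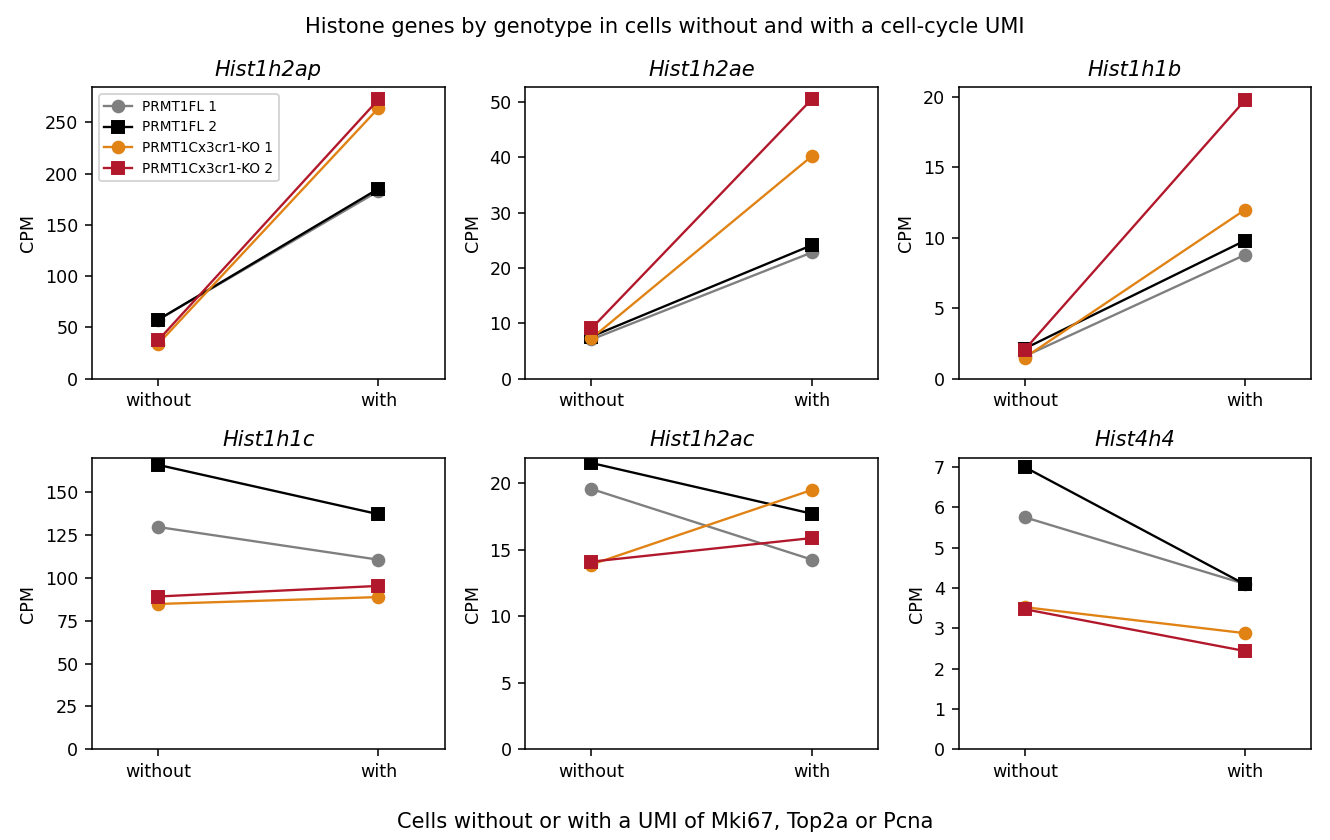
CPM of 6 members in cells without and with a UMI of Mki67, Top2a or Pcna, with 1 line per library. For Hist1h2ap the lines of the PRMT1Cx3cr1-KO mice start lower (33.9 and 37.5) and end higher (264 and 272) than those of the PRMT1FL mice, and for Hist1h1c they are lower at both ends.

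The difference between cells with and without a cell-cycle UMI was itself compared between genotypes. Of 47 members, 7 had a larger difference in the knockout and 0 a smaller one, where 0.42% of all genes had a larger one (edgeR, interaction term). The interaction was 1.22 ± 0.05 on the log2 scale for Hist1h2ap (adjusted p = 2.07e-13 from edgeR), 0.78 ± 0.09 for Hist1h2ae and 0.81 ± 0.18 for Hist1h1b. It was 0.69 ± 0.10 for Hist1h2ac, 0.38 ± 0.07 for Hist1h4i, 0.32 ± 0.04 for Hist1h1c and 0.20 ± 0.04 for Hist1h2bc. The members' median was 0.32, against -0.01 over all genes. Leaving out each mouse in turn, the interaction was 1.17 to 1.27 for Hist1h2ap and 0.77 to 0.80 for Hist1h2ae. It was 0.52 to 0.84 for Hist1h2ac and 0.37 to 0.40 for Hist1h4i. The interaction rests on 2 mice per genotype, and edgeR moderates their spread with that of other genes. With 1 mouse left in a genotype, a call that is kept does not show that the difference repeats between mice. Without PRMT1Cx3cr1-KO mouse 2 there were 4 members called, where 0.63% of all genes were, in either direction. Hist1h1c lost its call without PRMT1Cx3cr1-KO mouse 2 (0.31). Hist1h1b and Hist1h2bc lost theirs without PRMT1FL mouse 2 (0.68 and 0.14), without PRMT1Cx3cr1-KO mouse 1 (0.91 and 0.17) or mouse 2 (0.66 and 0.22).

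In thinned cells 1 of 34 members had a called interaction, where 0.0543% of all genes had a larger difference. It was Hist1h2ap, at 0.81 ± 0.07. Hist1h2ac was at 0.65 ± 0.20, Hist1h2ae at 0.48 ± 0.17, Hist1h1b at 0.17 ± 0.32 and Hist1h1c at 0.03 ± 0.10. Hist1h2ac had 80 UMIs in 1 cell of PRMT1Cx3cr1-KO mouse 1, against at most 22 in a cell of any other library. Its level in cells with both was 21.6 and 24.2 against 39.4 and 19.9 CPM, and only that mouse stood apart. Without it the interaction was 0.52 ± 0.08.

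The genes that process, carry and replace these histones were set beside the members. Of 11 genes for histone mRNA processing and transcription, 10 were tested between cells with both and cells with none, and 7 were higher and 1 lower (edgeR). In this comparison, used for each list, 29.1% of all genes were higher and 29.6% lower. Slbp, which binds the stem-loop, rose by 0.86 ± 0.04, Npat, a coactivator of histone genes, by 0.67 ± 0.08 and Cpsf2, of the cleavage machinery, by 0.20 ± 0.05. Cpsf3, the endonuclease, was at -0.00 ± 0.06, and Lsm10, of the U7 particle, was the gene called lower (-0.26 ± 0.06). Of 11 histone chaperones 9 rose, among them Rbbp4 by 0.61 ± 0.04 and Npm1 by 0.12 ± 0.03, and Atrx was at 0.03 ± 0.04. Replacement histones are mostly made from polyadenylated mRNAs outside S phase, and of 10 tested 9 were higher and 1 lower. H2afz (H2A.Z) rose by 1.44 ± 0.04 and H3f3a (H3.3) by 0.19 ± 0.02, and H3f3b (H3.3) was the one lower, at -0.11 ± 0.02. All 23 S-phase genes and all 17 G2/M genes listed rose in these cells, with medians of 2.96 and 4.40. With Pcna only, all 23 S-phase genes were higher than in cells with none, with a median of 0.92, while 1 of 17 G2/M genes was. Of all genes 19.5% were higher there.

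Between genotypes, over all microglial cells, 0 genes of the lists for processing, chaperones, replacement histones and S phase were called (edgeR), where 0.555% of all genes were. At an unadjusted p under 0.05 there were 1, 4, 5 and 18, and DESeq2 called 0, 1, 2 and 7. Of all genes 20.03% were under that p and DESeq2 called 5.14%. The medians of the 4 lists were 0.00, 0.05, 0.17 and 0.39. Of the G2/M genes 1 was called, Hmgb2, a chromatin protein, at 0.55 ± 0.06 (adjusted p = 0.0334 from edgeR), and their median was 0.76. All 17 of them were under an unadjusted p of 0.05, and DESeq2 called 16. H2afz was at 474 and 482 CPM in the PRMT1FL mice and at 558 and 726 in the PRMT1Cx3cr1-KO mice (0.35 ± 0.11, adjusted p = 0.173 from edgeR), and Slbp at 46.7 and 43.6 against 50.4 and 48.3 (0.06 ± 0.07). The interaction of genotype with cell class was called larger in the knockout for 2 replacement histones, H2afz at 0.16 ± 0.03 and H2afv at 0.30 ± 0.05, and for 1 S-phase gene, Rrm1, at 0.38 ± 0.10. It was smaller for 1 G2/M gene, Ccnb2, at -0.57 ± 0.10. Of all genes 0.42% were called larger and 1.05% smaller.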

How the data were processed

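Single-cell 3′ RNA-seq of CD45+ CD11b+ brain cells was deposited as 4 tables of raw UMI counts per gene and cell barcode, 1 per mouse. The authors made the counts with Cell Ranger 3.1.0 on mm10, and the submitters' processing notes also name Scanpy 1.5.2 and Seurat 3.2.0. Mice were grouped by the genotype in the labels. The library totals were 76943248 to 99559644 UMIs.

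Cells with 200 or more and under 6000 genes and under 10% mitochondrial UMIs were kept. A cell was taken as microglial with UMIs of 3 or more of 10 microglia markers and of fewer than 3 markers of each other cell type. Doublets were not called, and an alternative left out the 5% of cells with most UMIs. Counts were summed per mouse and cell class and fitted over all genes with edgeR 4.0.16 (quasi-likelihood, TMM, filterByExpr, Benjamini-Hochberg) in R 4.3.3. Mouse was a term in comparisons of cell classes. The SE given after ± is the absolute log2 fold change divided by the square root of edgeR's quasi-likelihood F statistic. It is thus a moderated value and not the spread over the mice. The fits between genotypes over all microglial cells, by cell-cycle UMI and of cells with both against none were run on simulated counts with known changes. Those counts had a fixed dispersion and no differences between mice, so they do not test the spread between mice. The interaction and the genotype fits within cell classes were not simulated. DESeq2 1.42.0, other scalings, filters, class rules, a replicate block, thinning to 2000 UMIs and leaving out each mouse were alternatives.

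Values are given for the 20 members with most UMIs, each member called between genotypes, and up to 5 further members with the smallest adjusted p per class comparison. The members and gene lists were chosen with earlier results of these data known. Promoters came from RefSeq (GRCm38.p6) and stem-loops from GENCODE M21. The annotation release behind the deposited gene list was not given in the sources used here.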

Additional observations from a re-analysis of the deposited data

Results flagged for a closer look

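The difference between cells with and without a cell-cycle UMI differed between the genotypes for 7 of 47 members, by the interaction term in edgeR's quasi-likelihood test. Of all genes 0.42% had a larger and 1.05% a smaller difference in the knockout. It was larger in PRMT1Cx3cr1-KO mice by 1.22 on the log2 scale for Hist1h2ap, 0.78 for Hist1h2ae, 0.81 for Hist1h1b, 0.69 for Hist1h2ac, 0.38 for Hist1h4i, 0.32 for Hist1h1c and 0.20 for Hist1h2bc. The class itself was made up differently, with more cells that held both Pcna and Mki67 or Top2a in the knockout (19.98% and 25.2% of its cells against 14.6% and 14.8%). The part of that makeup in the 7 differences was not tested. In thinned cells only Hist1h2ap, at 0.81, was called among 34 members, while Hist1h1b was at 0.17 and Hist1h1c at 0.03. DESeq2 called 2 members on all UMIs, with most members lacking an adjusted p.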

How the results depend on the processing

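With 2 mice per genotype, counts of called members depended on single mice and on the tool. Leaving out a mouse, which leaves 1 in its genotype, changed how many members were called in each genotype comparison and for the interaction. The share of all genes called changed with it. For cells with against without a cell-cycle UMI, leaving out each mouse in turn gave 26 to 31 members called, where 44.8% to 46.5% of all genes were. Between genotypes, where edgeR called 0 of 51 members, DESeq2 called 7 of 51 and a fit with no filter on low counts 12 of 61. One with no microglia gate called 3 of 51 and one with a mitochondrial limit of 5% 1 of 51. In the same order, these alternatives called 5.14%, 8.01%, 5.08% and 0.787% of all genes. In cells with a cell-cycle UMI DESeq2 called 4 of 49 in place of 2, where it called 3.14% of all genes. Each of the 3 narrower classes, chosen after seeing the data, gave 0, where 0.188% to 0.674% of all genes were called. For the interaction DESeq2 called 2 in place of 7, where it called 0.443% of all genes, with 44 of 47 members lacking an adjusted p. Thinned cells, also added after seeing the data, gave 1 of 34, where 0.172% of all genes were called. Without a mouse term 20 members differed by cell-cycle UMI in place of 31, and 20.2% of all genes in place of 52.3%. In thinned cells, where 25 members were tested, 5 were called with Pcna only, 21 with Mki67 or Top2a only, 15 with both and 19 between the first 2 classes. In the same order, 8.66%, 32.1%, 23.3% and 16.4% of all genes were called there. The cause of these changes was not tested beyond the smaller number of members tested.

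The labels tie the replicate numbers to no litter, batch or day, so they were taken as names. Deviations of same-numbered mice correlated at -0.016 over all genes and at 0.108 over the members, and with 2 pairs this does not settle a pairing. A fit with the replicate block called 4 of 51 members between genotypes, 5 of 49 in cells with a cell-cycle UMI and 6 of 40 in the other cells. Of all genes it called 3.01%, 3% and 3.01%.

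Among values of called members, and of 6 leading members between genotypes and with Pcna only, directions that turned were those of Hist1h2ap between genotypes with Pcna only (-0.44) and with Mki67 or Top2a only (-0.093), of Hist1h2ap and Hist1h2ae with Pcna only against none in thinned cells (0.82 and 1.06), and of Hist2h2aa1 in thinned cells by cell-cycle UMI (0.094) and with Mki67 or Top2a only (0.31). Hist3h2a turned to 0.14 when Mki67 or Top2a without Pcna set the class. In the other cells, between genotypes, Hist1h2ae ranged from -0.050 without PRMT1Cx3cr1-KO mouse 2 to 0.22 without mouse 1, and Hist1h1b from -0.34 without PRMT1Cx3cr1-KO mouse 2 to 0.073 without mouse 1 and 0.091 without PRMT1FL mouse 2. Of these 1375 values under an alternative, 1226 kept their direction and side of the threshold, 103 lost and 36 gained a call. Most were of class comparisons. Between genotypes over all microglial cells 39 kept both and 27 gained a call. In cells with a cell-cycle UMI 37 kept both, 2 turned, 8 lost and 7 gained a call. In the other cells 32 kept both, 3 turned and 7 lost a call, and for the interaction 36 kept both and 15 lost a call. Members not called by cell-cycle UMI that turned and were called higher were Hist1h1e (0.22) and Hist1h2ac (0.67) in thinned cells, both (0.24 and 0.36) with 2 or more UMIs setting the class, and Hist1h1c (0.25), Hist1h1e (0.58), Hist1h2ac (0.87) and Hist3h2ba (0.53) with Mki67 or Top2a without Pcna. The filter on low counts left 10 members, with 10 to 37 UMIs each, outside the test between genotypes. Why their counts were low was not tested.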
